A study of Populus euphratica with 12 samples.

Results

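The comparison of ovate (Ov) with lanceolate (La) leaves of Populus euphratica took 6 of the 12 small RNA libraries, La1, La2 and La3 from trees of 4 to 6 years and Ov1, Ov2 and Ov3 from trees of 8 to 12 years. P. euphratica is a desert poplar whose leaf shape changes as the tree matures, and the other 6 libraries came from the linear (Li, trees of 0 to 3 years) and broad-ovate (Bo, trees over 20 years) leaves before and after these in that order. Every library was made from juvenile leaves, the second below the apex of the bud, of trees growing at a single site and sampled in a single month. The labels name no treatment, line or transgene. Leaf type and tree age changed together, so they cannot be told apart. Of 257 listed miRNAs, 214 averaged at least 1 RPM (reads scaled to a total of 1000000 on listed miRNAs) over the 6 libraries, and these were compared as Ov over La. They were 142 annotated miRNAs under poplar names (ptc), 52 predicted mature miRNAs and 20 predicted star strands, the second strand cut from a precursor.

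Plant miRNAs are short RNAs that an ARGONAUTE protein carries to messenger RNAs of matching sequence, which are then cut or translated less. Conserved plant families have few kinds of target each. In Arabidopsis, miR156 holds back the SPL factors that promote adult traits while miR172 acts on AP2-like factors, and the fall of the former with age is a known marker of the change from juvenile to adult growth. Other families act on factors of leaf margin, polarity and growth or on the silencing machinery itself. Poplars also carry families that few other plants have.

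The 6 libraries held 268012 (La2) to 632114 (Ov1) reads on listed miRNAs, so a single read stood for 1.58 RPM (Ov1) to 3.73 RPM (La2). The 10 most abundant miRNAs of each library took 79.4% to 84.1% of its reads. The miR159a share was lowest in Ov1, at 30.9% (95% Wilson interval 30.8% to 31.1%, which covers counting error only), and highest in La2, at 40.0%. No library was a copy of another. Small RNA values hold no cell type markers, so the leaf label could not be checked against them, and in whole leaves fewer cells of a type and less RNA per cell cannot be told apart. The tree ages of La and Ov do not overlap, so no La library shared a tree with an Ov library. The labels do not say whether libraries with the same number came from the same batch, and p-values measure only the spread between these libraries.

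Few miRNAs separated Ov from La leaves. Without the replicate number in the fit, 6 of 214 miRNAs (2.80%) passed an unadjusted P of 0.05 in limma on log2(RPM + 1), 2 of them higher and 4 lower in Ov. Those higher were ptc-miR169ac and ptc-miR6447, and those lower were ptc-miR156a, ptc-miR398a, the predicted NW_011500042.1_20559 and the star strand NW_011499937.1_14828*. With RLE scaling (by the median ratio of each library to the average one), 3 of 6 were higher. With the number as a block in the fit, 22 miRNAs (10.3%) passed, 14 higher in Ov (6.54%) and 8 lower (3.74%), and all 6 of the calls without the block were among them. After Benjamini-Hochberg adjustment limma called 0 miRNAs in either fit, with a smallest adjusted p of 0.971 without the block and 0.372 with it. Over the alternatives, the adjusted p of the named miRNAs among the 22 lay between 0.00122 (limma with Benjamini-Hochberg adjustment, miR7840 without pair 2) and 0.999, and the values under 0.05 all came from the fit without pair 2. The count without the block was 11 without La3 and 3 without Ov1.

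The 22 miRNAs were 17 annotated miRNAs, 4 predicted mature miRNAs and 1 star strand, and 15 of them averaged at least 100 RPM. All 22 moved the same way in each of the 3 same-numbered pairs, which the block favours by its construction. In all, 30 miRNAs (14.0%) were higher in Ov in all 3 pairs and 39 (18.2%) were lower. The pair of number 1 had the largest log2 ratio in size for 15 of the 22. When each pair in turn was left out of the fit with the block, 2 of the 22 (miR156a and miR167f-5p) passed every time, 7 in 2 of the 3 fits, 8 in 1 and 5 in none. For 11 of the 22 the 3 La and 3 Ov values did not overlap, and over all tested miRNAs this held for 17 (7.94%), 6 higher and 11 lower in Ov.

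**Figure D1:**
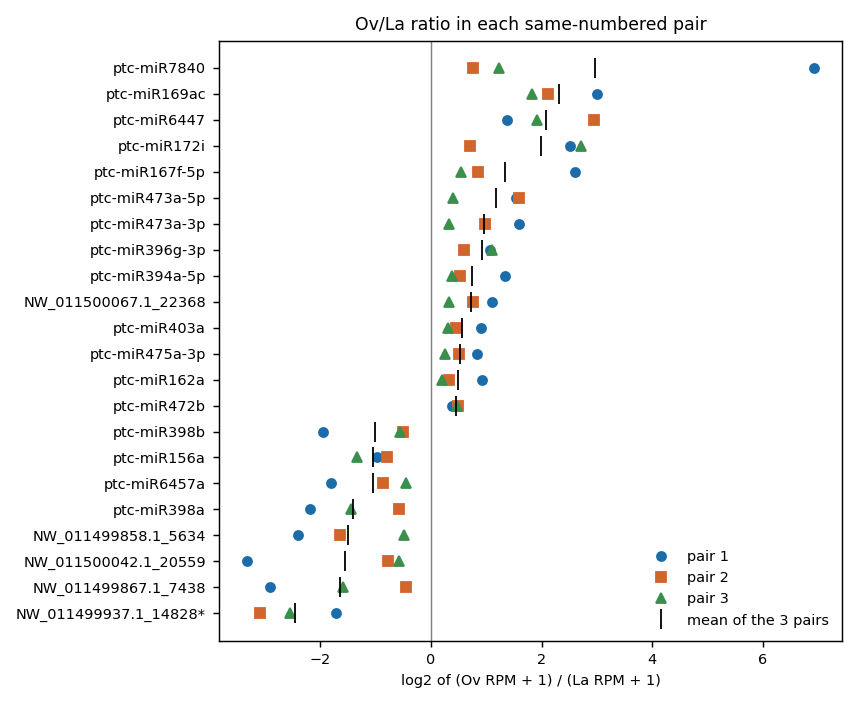
The log2 ratio of Ov to La, each as RPM + 1, in same-numbered pair 1 (circles), 2 (squares) and 3 (triangles) for the 22 miRNAs past an unadjusted P of 0.05 with the replicate block, with a bar at the mean of the 3 pairs. The 14 miRNAs above lie right of 0 in every pair and the 8 below lie left of 0. Pair 1 is the farthest from 0 for 15 of the 22, a count not made over all tested miRNAs.

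The quartiles of the changes were below or near the median errors in size. Over the 214 miRNAs the log2 fold change had a median of -0.12, with quartiles of -0.51 and 0.37, while the median standard error (SE) was 0.73 without and 0.54 with the block. For the 98 miRNAs that averaged at least 100 RPM, the median log2 fold change was -0.05, with quartiles of -0.30 and 0.40. Their median SE was 0.52, or 0.33 with the block. A log2 fold change over 1 in size was found for 38 miRNAs, and only 9 of these were among the 98.

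La2 resembled Ov2 and La3 resembled Ov3 more than each resembled the other libraries of its own leaf type. The distance (1 minus the Pearson correlation over the 214 log2 values) was 0.0347 between La2 and Ov2 and 0.0389 between La3 and Ov3, and 0.0681 between La1 and Ov1. Between leaf types it averaged 0.0685 and within leaf types 0.0747. The between-to-within ratio of 0.916 was reached by 7 of the 10 ways of splitting the 6 libraries 3 and 3 (one-sided exact permutation p = 0.7, where 0.1 is the smallest p possible). Deviations from the group means correlated across the 214 miRNAs at 0.23, 0.52 and 0.50 for the pairs 1, 2 and 3, and over the 98 abundant miRNAs at 0.08, 0.85 and 0.76. The resemblance was therefore strong for numbers 2 and 3. For number 1 it was weak over the 214 miRNAs and did not stand out over the 98. There La1 with Ov3 (0.13) and La2 with Ov1 (0.16) correlated more, and La1 with Ov2 (-0.24) and La3 with Ov1 (-0.26) less. By distance La1 was nearest to La3 (0.0631) and Ov1 nearest to Ov2 (0.0531).

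**Figure D2:**
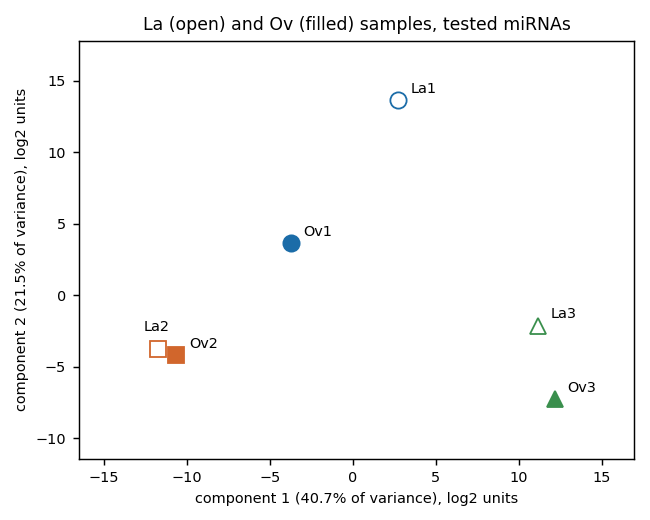
Principal components of log2(RPM + 1) of the 214 miRNAs, centred per miRNA, for La (open symbols) and Ov (filled symbols), with 1 shape and colour per replicate number. Component 1 (40.7% of the variance) places La2 and Ov2 at -11.7 and -10.6 and La3 and Ov3 at 11.2 and 12.2, while La1 and Ov1 lie between them.

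Leaf type took 15.6% of the summed squares over the 214 miRNAs, the replicate number 60.2% and the rest 24.2%, with 1, 2 and 2 degrees of freedom. The share of the number was above that of the leaf type for 172 of 214 miRNAs, and for 86 of the 98 abundant ones. With 2 degrees of freedom against 1, the number takes the larger share of most miRNAs even where neither has an effect. These counts are therefore a description. Leaf type took over 50% in 7 of the 98, while the number took over 80% in 31 of them.

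**Figure D3:**
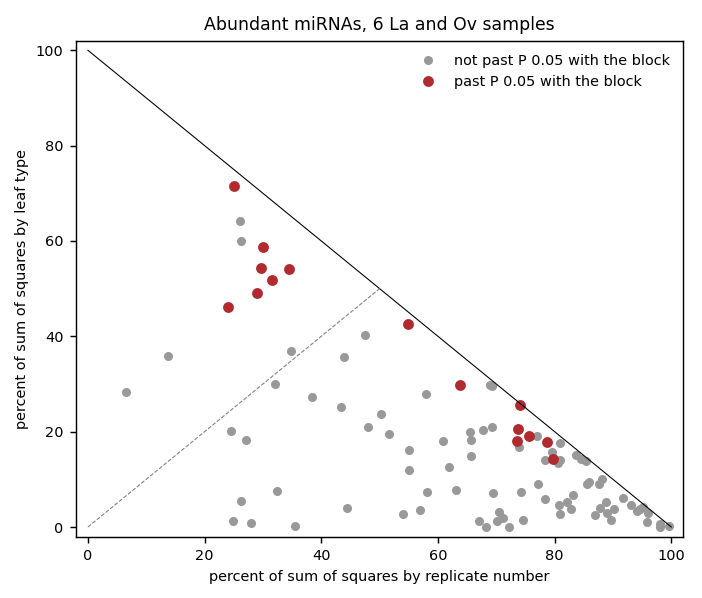
Each point is 1 of the 98 miRNAs averaging at least 100 RPM, placed by the percent of its sum of squares (log2 scale) taken by the replicate number (horizontal axis) and by leaf type (vertical axis), with the 15 that passed P 0.05 with the block in red. The points crowd toward the lower right, and 86 of the 98 lie below the dashed line of equal shares. That line does not allow for the 2 degrees of freedom of the number against 1 of leaf type.

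Among the 9 phase change miRNAs, miR156a was lower in Ov in both fits and miR172i was higher with the block, while miR156g and miR172a did not pass. The miR156a values were 923, 1407 and 1585 RPM in La1, La2 and La3 and 471, 809.8 and 625 RPM in Ov1, Ov2 and Ov3, so that every Ov library was below every La library. Its log2 fold change was -1.04 with an SE of 0.44, or 0.28 with the block, and it passed the unadjusted threshold in both fits. It had an adjusted p of 0.372 with the block by limma with Benjamini-Hochberg adjustment, within a range from 0.201 to 0.999 over the alternatives. With the block it passed the unadjusted threshold without any one of the 3 pairs, and without the block it failed it without La2, La3, Ov1 or Ov3, at log2 fold changes of -0.84 to -1.04. The Li libraries held 2451 to 4547 RPM and the Bo libraries 116 to 195 RPM, so the Ov values lay between those of La and Bo leaves.

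The second member, miR156g, had 583, 459 and 713 RPM in the La libraries and 271, 373 and 449 RPM in the Ov libraries. These values did not overlap either, but the log2 fold change of -0.69 (SE 0.46, or 0.33 with the block) did not pass in either fit. Summed over its 4 listed members, miR156 stood at 1892 ± 396 RPM in La and 1000.3 ± 229 RPM in Ov (SD, n = 3 each) and was lower in Ov in all 3 pairs.

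The miR172a values were 5572, 6362 and 3656 RPM in La and 10479, 7641 and 4259 RPM in Ov. They were higher in Ov in each pair, yet Ov3 lay below La1 and La2, and the log2 fold change of 0.47 (SE 0.42, or 0.23 with the block) did not pass. In contrast, miR172b-5p was lower in Ov in all 3 pairs (log2 fold change -0.39, not passing). The call of miR172i rested on 1 pooled La read and 7 pooled Ov reads, a ratio of 6.06 with a 95% counting interval of 0.779 to 273. The median log2 fold change of the 9 was -0.35, against -0.12 over all 214.

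In the list for leaf margin and growth, 2 of 10 miRNAs passed with the block, both higher in Ov, and none passed without it. Over all 214, 14 passed with the block as higher in Ov (6.54%), and no test was run on a list as a whole. The clearest was miR394a-5p, which in Arabidopsis acts on the F-box gene LCR, a regulator of leaf form and of the shoot meristem. It had 7232, 5888 and 8461 RPM in La and 18409.7, 8468 and 10994 RPM in Ov. The groups did not overlap, though Ov2 and La3 differed by under 10 RPM, and Ov1 stood far above the rest. Ov exceeded La by a log2 fold change of 0.75 (SE 0.37, or 0.24 with the block), and 0.44 without Ov1. Its adjusted p with the block was 0.372 (limma, Benjamini-Hochberg), and without pair 3 it no longer passed the unadjusted threshold.

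The miR396 family acts on GROWTH-REGULATING FACTOR genes, which promote cell division in young leaves. Its 3p strand miR396g-3p had 117, 97.0 and 199 RPM in La and 247, 148 and 427 RPM in Ov. It was higher in each pair, with 1 Ov value inside the La range, and its log2 fold change was 0.92 (SE 0.59, or 0.38 with the block). It passed with the block but not without it, and no longer passed when any pair was left out. Whether miR396g-3p acts on those genes was not tested. Its partner strand miR396g-5p was more abundant, at 1681, 2672 and 832 RPM in La and 1574, 1522 and 1169 RPM in Ov. These values overlapped and did not pass. Other members went different ways. The most abundant, miR396c, had 15797, 16660 and 4914 RPM in La and 23230.0, 15955 and 6442 RPM in Ov, a pattern that followed the number more than the leaf type. Fold changes on the log2 scale were 0.83 for miR396e-3p and -0.83 for miR396a, and neither passed. For miR164a, which acts on CUC factors of the leaf margin, the values were 1201, 1179 and 1055 RPM in La and 849.5, 1314 and 829 RPM in Ov, and the groups overlapped.

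Of the 15 auxin response miRNAs, 1 passed with the block, miR167f-5p, higher in Ov. In Arabidopsis miR167 acts on the auxin response factors ARF6 and ARF8. The miR167f-5p values were 572, 235 and 2463 RPM in La and 3479, 423 and 3614 RPM in Ov. Number 2 was low and number 3 high in both leaf types, while number 1 was low in La and high in Ov. The log2 fold change was 1.33, with an SE of 0.98 that fell to 0.40 with the block, and 0.70 without pair 1. With the block it passed the unadjusted threshold whichever pair was left out, with an adjusted p of 0.372 over all 3 pairs (limma, Benjamini-Hochberg). The other strand of that precursor, miR167f-3p, moved the opposite way, from 404, 78.4 and 169.7 RPM in La to 119, 67.2 and 103 RPM in Ov, without passing (log2 fold change -0.90).

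The remaining members of the auxin list did not pass. The miRNA miR390 triggers the small RNAs that act on ARF3 and ARF4, and the miR390a values were 7841, 4791 and 7813 RPM in La and 12287, 6079 and 7959.8 RPM in Ov, higher in each pair with a log2 fold change of 0.34. Summed over 5 members, miR167 stood at 9862 ± 1756 RPM in La and 10329 ± 1407 RPM in Ov (SD, n = 3 each), so the change of miR167f-5p was not seen in its family as a whole. Family members share much of their sequence, and the treatment of reads matching more than 1 of them is unknown here, so the division among members is uncertain.

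Among 5 miRNAs that act on the silencing machinery, 2 passed with the block, both higher in Ov, against 14 higher of all 214 (6.54%). The first, miR403a, acts on AGO2 in Arabidopsis and had 20209, 22831 and 17663 RPM in La and 37897, 31218 and 21853 RPM in Ov. Only Ov3 fell inside the La range, and the log2 fold change was 0.56 (SE 0.31, or 0.20 with the block; adjusted p = 0.372 with the block by limma with Benjamini-Hochberg adjustment). The second, miR162a, acts on the mRNA of DCL1, the enzyme that cuts miRNA precursors. Its values were 15094, 21936 and 48841 RPM in La and 28827, 27676 and 56288 RPM in Ov, with number 3 highest in both leaf types. The log2 fold change was 0.49 (SE 0.46, or 0.20 with the block), and 0.27 without pair 1.

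In the same list, miR168 acts on AGO1. The miR168a-3p values were nearly level, at 15492, 15290 and 14754 RPM in La and 13765, 14692 and 13299 RPM in Ov. These 6 values did not overlap, yet the log2 fold change was only -0.13 (SE 0.28, or 0.19 with the block) and did not pass in either fit. Its partner miR168a-5p was higher in Ov in all 3 pairs, with a log2 fold change of 0.29 that did not pass. The list had a median log2 fold change of 0.29, against -0.12 over all tested miRNAs.

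Both miR398 members were lower in Ov. They act on mRNAs of copper/zinc superoxide dismutases and accumulate when copper is scarce. The miR398a values were 168, 70.9 and 84.8 RPM in La and 36.4, 47.0 and 30.7 RPM in Ov, without overlap. It passed in both fits at a log2 fold change of -1.40 (SE 0.62, or 0.52 with the block), but the call without the block was lost when any of the 6 libraries was left out, at -1.03 (without La1) to -1.65 (without La2). In pooled reads it had 127 in La and 48 in Ov, a ratio of 0.327 (0.230 to 0.460, counting error only). The miR398b values were 436, 358 and 189 RPM in La and 112, 252 and 128 RPM in Ov. These overlapped, since Ov2 lay above La3, and the log2 fold change of -1.0 (SE 0.57) passed only with the block (SE 0.42) and was -0.53 without pair 1.

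The other copper-responsive miRNAs tested did not pass. For miR408-3p the values were 57.4, 48.5 and 104 RPM in La and 36.4, 80.6 and 106 RPM in Ov, a log2 fold change of 0.03. The others, miR408-5p, miR397a and miR1444b, reached at most 44.7 RPM in any of the 6 libraries. The list of 6 thus had 2 members lower in Ov with the block and 0 higher, against 8 lower of all 214 (3.74%).

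The families miR472 and miR482 act on mRNAs of NBS-LRR immune receptors. Of the 8 miRNAs tested in this list, 4 fold changes were above 0 and 4 below. The most abundant member, miR472b, had 30583, 32140 and 54158 RPM in La and 39879, 45321 and 75247 RPM in Ov. Number 3 was highest in both leaf types, and the pair ratios agreed closely, at 0.38, 0.50 and 0.47 on the log2 scale. The log2 fold change was 0.45, and its SE fell from 0.35 to 0.17 with the block, where it passed the unadjusted threshold (adjusted p = 0.374, limma with Benjamini-Hochberg adjustment). With the block it passed without pair 1 but not without pair 2 or pair 3, and the log2 fold change without the block lay between 0.18 (without Ov3) and 0.71 (without La3). It was the only one of the 8 that passed. The members miR472a, miR482c-3p and miR482b-3p were also higher in Ov in all 3 pairs, at log2 fold changes of 0.40, 0.39 and 0.59, without passing. Among those with a fold change below 0, miR482a.2 had 1642, 1388 and 1583 RPM in La and 2182, 1260.1 and 1002 RPM in Ov, overlapping at -0.13 on the log2 scale. Summed over the family, the 3 pair ratios averaged 0.44 ± 0.06 for miR472 and 0.28 ± 0.02 for miR482 (log2, SD of 3 pairs). For miR472b the number took 74.1% of the sum of squares and leaf type 25.6%.

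Among the poplar families, 3 of 14 miRNAs passed with the block, each higher in Ov and each with number 3 highest in both leaf types. Over all 214 miRNAs, 14 passed with the block as higher in Ov (6.54%). The miR473a-3p values were 328, 291 and 1600 RPM in La and 987, 575 and 2012 RPM in Ov, and those of its partner miR473a-5p were 87.3, 48.5 and 318 RPM in La and 256, 148 and 419 RPM in Ov. Both strands of this precursor thus ranked the 6 libraries in the same order. Their log2 fold changes were 0.96 (SE 0.72, or 0.33 with the block) and 1.18 (SE 0.75, or 0.42), and lay between 0.49 and 1.75 for the 3p strand and between 0.59 and 1.93 for the 5p strand when single libraries were left out. With the block each strand passed in only 1 of the 3 fits without a pair, that without pair 3. The miR475a-3p values, in a family that acts on mRNAs of pentatricopeptide repeat proteins in P. trichocarpa, were 2402, 2123 and 5811 RPM in La and 4297, 3024 and 6927 RPM in Ov. Its log2 fold change was 0.53 (SE 0.49, or 0.23 with the block). The other strand, miR475a-5p, had a log2 fold change of -0.11 and is described with the miRNAs that followed the number.

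**Figure D4:**
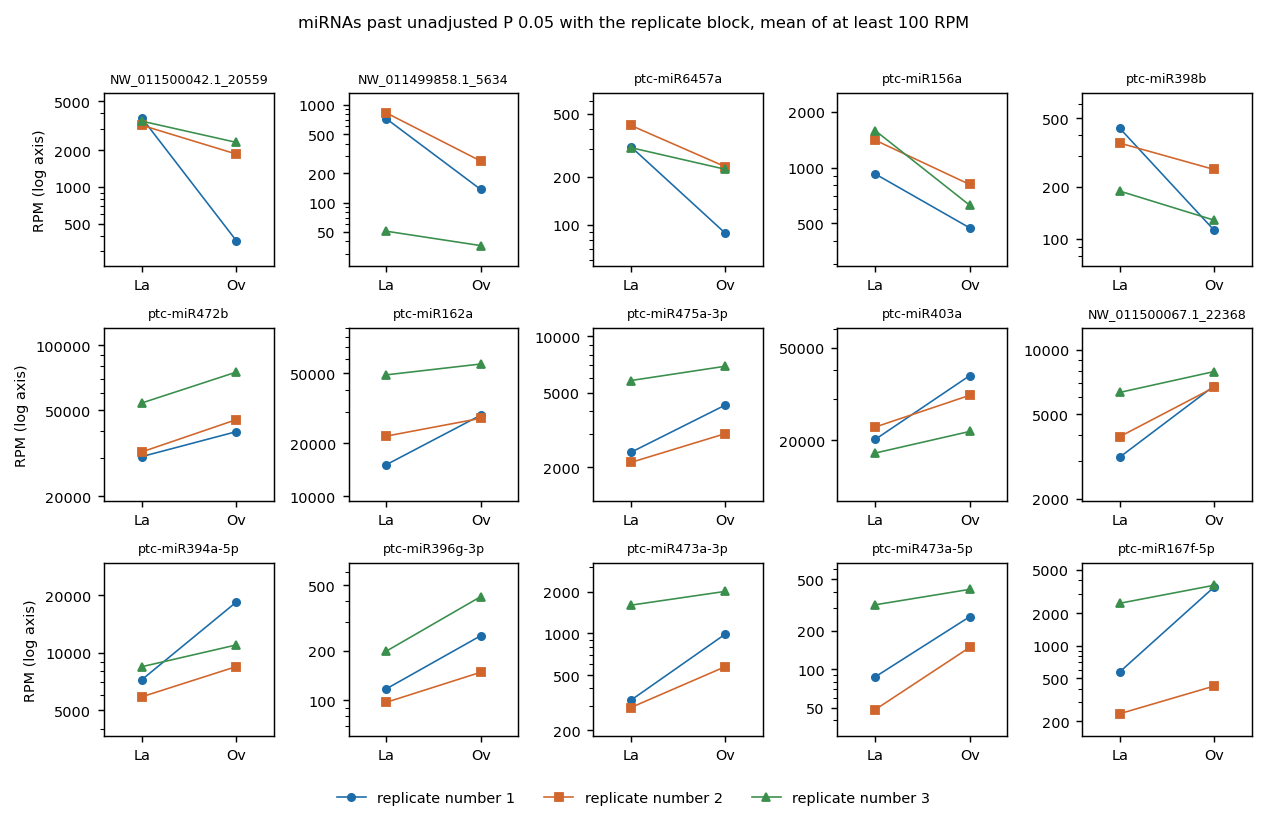
RPM on a log axis in La and Ov leaves for the 15 miRNAs averaging at least 100 RPM that passed an unadjusted P of 0.05 with the replicate block, with lines joining libraries of the same number (number 1 circles, 2 squares, 3 triangles). All lines of a panel slope the same way. In the panels of miR472b, miR162a, miR475a-3p and both strands of miR473a number 3 lies above the other numbers in La and Ov alike. The same holds for miR167f-5p, miR396g-3p and NW_011500067.1_22368.

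Of 52 predicted mature miRNAs, 1 passed with the block as higher in Ov and 3 as lower. Their positions are those the authors' files give on scaffolds of PopEup_1.0. The miRNA NW_011500042.1_20559 (scaffold NW_011500042.1, bases 64518 to 64592, minus strand) had 3663, 3190 and 3447 RPM in La and 365, 1858 and 2314 RPM in Ov. The La values were close together and every Ov value was below them, with Ov1 lowest by far. It passed in both fits at a log2 fold change of -1.56 (SE 0.64, or 0.48 with the block), and this was -0.73 without Ov1. Without the block the call held only without Ov2 or Ov3. The other leaf types spread more widely than La, from 1870 to 5311 RPM in Li and from 844 to 9143 RPM in Bo.

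The predicted miRNA higher in Ov was NW_011500067.1_22368 (bases 59999 to 60076, plus strand), at 3139.7, 3918 and 6318 RPM in La and 6776, 6674 and 7915 RPM in Ov. The groups did not overlap, although La3 came close to Ov2, and the log2 fold change was 0.73 (SE 0.37, or 0.23 with the block). It passed only with the block (adjusted p = 0.372, limma with Benjamini-Hochberg adjustment). Li libraries held 1333 to 2848 RPM and Bo libraries 10101 to 20295 RPM, which places all La and Ov values between those of Li and Bo.

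The other predicted miRNAs lower in Ov were NW_011499858.1_5634 (bases 912472 to 912557, minus strand) and NW_011499867.1_7438 (bases 815930 to 815995, plus strand). The former had 719, 825 and 50.9 RPM in La and 136, 265 and 36.3 RPM in Ov, so number 3 was low in both leaf types and the SE of its log2 fold change of -1.50 fell from 1.09 to 0.45 with the block. This fold change was -0.71 without Ov3 and -2.80 without La3, and with the block it passed without pair 3 but not without pair 1 or pair 2. The latter had 89.6, 78.4 and 43.6 RPM in La and 11.1, 57.1 and 14.0 RPM in Ov, a log2 fold change of -1.64 (SE 0.78, or 0.62 with the block) and -1.01 without pair 1. In pooled reads it had 78 in La and 29 in Ov, a ratio of 0.322 (0.203 to 0.499, counting error only). Over the 52 predicted mature miRNAs 34 fold changes were below 0 and 18 above, with a median of -0.28, and over the 20 star strands 15 were below 0 and 5 above. Over all 214 miRNAs 119 were below 0 and 95 above, with a median of -0.12.

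Among annotated miRNAs of other families, miR6457a, whose targets are not given here, had 310.1, 422 and 305 RPM in La and 88.6, 232 and 223 RPM in Ov. The values did not overlap, and the log2 fold change of -1.04 (SE 0.56, or 0.40 with the block) passed only with the block and was -0.66 without pair 1. The member miR6457b went the other way in number 1, from 367 RPM in La1 to 1691 RPM in Ov1, and did not pass.

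The miR7840 values were 0, 67.2 and 41.2 RPM in La and 120.2, 114 and 97.7 RPM in Ov. All Ov libraries were near 100 RPM while La1 held 0 of 435399 reads, which allows up to 6.89 RPM. The fitted log2 fold change of 2.97 (SE 1.36, or 1.07 with the block) depends on the pseudocount, passed with the block and not without it, and was 1.05 without La1. In pooled reads the ratio of Ov to La was 3.59 (95% counting interval 2.47 to 5.35, from 35 and 145 reads). In the Li libraries 64.2, 2.34 and 4.82 RPM were found and in Bo at most 5.01 RPM.

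The remaining 3 calls rested on very few reads. The family miR169 acts on NF-YA factors, and the miR169ac counts were 1, 0 and 1 read in La and 16, 1 and 4 reads in Ov, a pooled ratio of 9.10 (2.22 to 80.0, counting error only). For miR6447 the counts were 0 reads in each La library and 1, 2 and 1 in Ov, at least 1.16-fold higher against a floor of 3 pooled reads. The star strand NW_011499937.1_14828* (bases 486531 to 486600, plus strand) had 1, 2 and 2 reads in La and 0 in each Ov library, at least 1.92-fold lower in Ov against the same floor. Both bounds take the reads seen as exact and leave out their counting error. Without the block the call of miR169ac was lost without La1, La2, Ov1 or Ov3, that of miR6447 without La2, La3 or Ov2, and that of the star strand without La2. Its mature strand, NW_011499937.1_14828, went the other way, with 98.8, 67.2 and 240.0 RPM in La and 153, 111 and 304 RPM in Ov.

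The 7 miRNAs without a call among the 10 most abundant had log2 fold changes of -0.31 to 0.35. The miR159a values were 385894, 400180 and 368465 RPM in La and 309481, 383564 and 369996 RPM in Ov, with Ov1 lowest and a log2 fold change of -0.12 (SE 0.21, or 0.15 with the block). This family acts on GAMYB-like factors. The log2 fold changes of miR166a and miR166n, which act on HD-ZIP III factors of leaf polarity, were -0.12 and -0.17. The family miR319 acts on TCP factors of leaf shape, and the miR319a values were 46968, 24312 and 59724 RPM in La and 54843, 39037 and 66207 RPM in Ov. They were higher in Ov in all 3 pairs but overlapped, at a log2 fold change of 0.35 (SE 0.37, or 0.18 with the block). The log2 fold change was 0.08 for miR319e, -0.31 for miR6445a and -0.18 for the predicted NW_011499886.1_10127 (bases 836223 to 836308, plus strand).

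The sulfate-responsive miR395b had 537, 1082 and 725 RPM in La and 831, 672 and 653 RPM in Ov, a log2 fold change of -0.07 (SE 0.45, or 0.33 with the block). Both groups were far below the Li libraries, which held 9775 to 64462 RPM. The log2 fold change of miR6427-3p was -0.41, lower in all 3 pairs without passing, and those of the predicted pair NW_011500297.1_28413 (bases 159247 to 159292, plus strand) were -0.30 for the mature and 0.14 for the star strand. The lists of MYB and TCP regulators (5 tested), leaf polarity (3), sulfate (2) and phosphate (6) had 0 members past P 0.05 in limma in either fit. In the GRAS and NF-YA list, miR169ac was the only one of 20 that passed. Of 39 other annotated miRNAs, 2 were higher and 1 lower in Ov with the block.

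The 5 miRNAs that most closely followed the replicate number were chosen by the share of the number in their sum of squares. A small share of leaf type follows from that choice, so their values are a description. The miR475a-5p values were 181, 1772 and 276 RPM in La and 184, 1768 and 218 RPM in Ov, with number 2 high in both, and the number took 99.5% of its sum of squares. For miR482d-3p they were 198, 119 and 914 RPM in La and 147, 158 and 909.9 RPM in Ov, with number 3 high in both (98.1%). In neither case did the Li and Bo libraries show the same excess, since miR475a-5p had 180.0 RPM in Li2 and 291 RPM in Bo2, and miR482d-3p had 193 RPM in Li3 and 201 RPM in Bo3.

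The other 3 of these miRNAs had smaller ranges. NW_011499846.1_779 (bases 5387605 to 5387691, plus strand) had 262, 575 and 322 RPM in La and 267, 497 and 315 RPM in Ov. The star strand NW_011499875.1_8560* (bases 237078 to 237161, minus strand) had 1015, 3190 and 2189 RPM in La and 954, 2409 and 1962 RPM in Ov. The miR390d-3p values were 1902, 959 and 945 RPM in La and 1766, 1042 and 765 RPM in Ov, so here number 1 was the high one. Each of the 3 numbers was thus the highest for some of these 5 miRNAs.

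A few miRNAs, chosen after their values were seen, were nearly absent from some libraries of each leaf type. The miR6421-3p values were 9.19, 5414 and 67.9 RPM in La and 4874, 5854 and 33.5 RPM in Ov, so that La1 and both libraries of number 3 were low and the others high. Its log2 fold change of 2.67 had an SE of 2.33 and did not pass in either fit. NW_011500051.1_21579 had 6.89, 548 and 0 RPM in La and 155, 665 and 0 RPM in Ov. In this miRNA number 3 was at 0 reads in both leaf types, which allows up to 7.27 RPM in La3 and 8.37 RPM in Ov3.

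**Figure D5:**
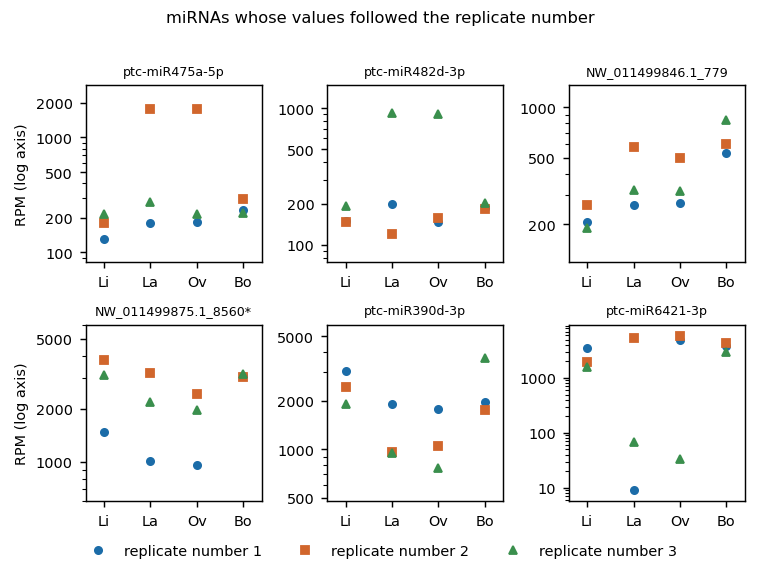
RPM on a log axis in all 12 libraries, by leaf type and replicate number (1 circles, 2 squares, 3 triangles), for the 5 miRNAs with the largest share of their sum of squares taken by the number and for miR6421-3p. The La and Ov points of each number lie at nearly the same height in the first 5 panels, and in Li and Bo leaves the points are ordered differently in several panels.

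Few miRNAs were seen in only 1 of the 2 leaf types. At least 1 read was found in both for 207 miRNAs, of which 155 had a read in all 6 libraries, while 15 were seen only in La, 15 only in Ov and 20 in neither. Those of La alone had at most 9 pooled reads and those of Ov alone at most 5, with a median of 2 reads in both cases. Only NW_011499937.1_14828* in La and miR6447 in Ov were present in all 3 libraries of their leaf type. Of the 30, 7 had more pooled reads than the floor of 3. Besides those 2, miR169x had 1, 0 and 8 reads in La and was at least 3.46-fold lower in Ov, and miR6463 had 4, 0 and 0 reads in La and was at least 1.54-fold lower. Both miR7814 and miR7839 had 2, 3 and 0 reads in Ov and were at least 1.44-fold higher there, and miR171g-5p had 2, 0 and 2 reads and was at least 1.16-fold higher. These bounds set the leaf type without reads at the floor of 3 and take the reads seen in the other as exact. The counting error of the reads seen is thus left out, and 8 of the 9 miR169x reads came from La3. The remaining 23 were at or under the floor in both leaf types.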

How the data were processed

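Small RNA libraries of 12 leaf samples were deposited as 1 value per miRNA and sample for 257 miRNAs. Known miRNAs were assigned by the authors through matches to miRBase release 21 with 0 mismatches, further miRNAs and star strands were predicted with miRDeep2, and values called TPM were deposited. Each deposited column sums to 1000000 and all of its values are whole multiples of the smallest, within 0.001, so the unit is RPM over listed miRNAs without a length term. The sources used here do not give the read trimming.

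Values of La and Ov were compared with limma (version 3.58.1, R 4.3.3) on log2(RPM + 1) with a variance trend, 2-sided, for 214 miRNAs averaging at least 1 RPM. The pseudocount shrinks the ratio of low values, and the fold change of miRNAs with few reads depends on it. The threshold was an unadjusted P of 0.05, with Benjamini-Hochberg adjusted p beside it. The replicate number was added as a block, since the deviations of all 3 same-numbered pairs correlated above 0.1 over the 214 miRNAs (0.23, 0.52 and 0.50). Over the 98 averaging at least 100 RPM, pair 1 did not (0.08). The pairing comes from the values, not the labels, so the block was adopted on the same values that its P rest on. Pooled ratios carry exact 95% counting intervals. The miRNAs named were those past the threshold, the 20 smallest P with the block, those without overlap that averaged at least 100 RPM, the 10 most abundant, those the study names, the 5 that most followed the number, and examples of the lists. These rules, the members and the lists were chosen with earlier results of these data known. The fits were tested on simulated data with known changes. There each number had a shared effect of the same spread, so a number with a weak one was not covered. Exact tests used Python 3.11.15 with numpy 2.4.6, pandas 2.3.3 and scipy 1.17.1, and figures matplotlib 3.10.9. Alternatives were other pseudocounts, scalings, filters, thresholds, samples in the fit and left-out libraries.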

Additional observations from a re-analysis of the deposited data

How the results depend on the processing

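The count of 6 miRNAs past P 0.05 was 22 with the replicate block, 3 with a mean of at least 10 RPM, and 0 (limma) with Benjamini-Hochberg adjustment or with P under 0.01, where the block gave 4 with P under 0.01 (8 with RLE scaling too) and 0 with that adjustment. Leaving out single libraries, or pairs with the block, gave 3 to 16. With the block, alternatives chosen after seeing the data gave 19 with a pseudocount of 0.1, 22 with a pseudocount of 10, 26 with RLE scaling and 18 with a mean of at least 10 RPM, and of the 22 calls 19, 19, 22 and 17 remained. With all 12 samples in the fit it was 6, or 9 with the block, of which 8 were among the 22. Other pseudocounts, scalings, no trend and no filter gave 5 or 6. Without pair 2, 4 miRNAs passed the adjusted threshold with the block. In that fit limma replaced the variance of each miRNA by the fitted trend. The share of the number was 71.4% for miRNAs averaging at least 100 RPM. Of the results on single miRNAs and families under alternatives, 600 kept direction and side of the threshold, 91 newly passed, 40 no longer passed, 28 moved and 33 changed sign. The sign changes concerned 12 miRNAs, 0 of them among the 22 calls, and 29 came from leaving out a library or pair. The log2 fold change then ranged from -0.33 to 0.26 for NW_011499846.1_779, -0.68 to 0.18 for NW_011499875.1_8560*, -1.42 to 1.21 for NW_011500297.1_28413*, -0.32 to 0.0039 for miR166a, -0.44 to 0.14 for miR166n, -0.023 to 0.63 for miR319a, -0.25 to 0.28 for miR319e, -0.43 to 0.23 for miR390d-3p, -0.42 to 0.24 for miR395b, -1.16 to 0.88 for miR475a-5p, -0.87 to 0.85 for miR482d-3p and -0.77 to 0.12 for miR6445a. Without or with the block it was also -0.30 for NW_011500297.1_28413* with a pseudocount of 10 and 0.021 for miR482d-3p with RLE scaling, and the cause was not tested. Fits without a pair have fewer samples. The planned count model was not run, since each library had only 77 to 92 miRNAs with 1 to 20 reads. The minimum chosen for using recovered reads in it was 100. That minimum was a choice, as all values were whole multiples of 1 read. Depth limits miRNAs with few reads, where 0 reads allow up to 11.2 RPM in La2 and 4.75 RPM in Ov1.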

Other observations

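Number 3 stood at an extreme more often than the others in La and Ov leaves. Of the 98 miRNAs averaging at least 100 RPM, number 3 was the highest library of both leaf types for 25 and the lowest of both for 30. Number 2 was highest for 27 and lowest for 17, and number 1 for 13 and 19. Number 3 was highest for 4 of the 7 abundant immune receptor miRNAs and for 3 of the 5 of the poplar families. Only 6 miRNAs had number 3 highest in all 4 leaf types. These were both strands of miR473a, miR482b-3p, miR482d-3p, miR167e and the predicted NW_011500067.1_22368, all named after their values were seen.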
